A study of Mus musculus with 30 samples.

Results

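Genes best known for their expression in fat cells were examined in RNA from mouse cardiac myocytes. They are Adipoq, Cfd, Car3, Pck1, Plin1, Cidec, Pparg, Cebpa and Scd1, chosen by name from a list of adipocyte genes. These 9 genes are among the 52550 genes of the count table, and all 9 passed the filter on low counts that left 15587 genes for testing. Total RNA was depleted of ribosomal RNA and sequenced in 30 libraries, 5 in each of 6 groups. The comparison was between wild-type mice and Myh6-Cre:DspW/F mice, below termed heterozygotes. Each genotype was studied when 3 months old, when 6 months old under regular activity, and when 6 months old following 3 months of treadmill endurance training, termed exercised below. In the heterozygotes, 1 floxed allele of Dsp, the gene of the desmosomal protein desmoplakin, meets a Cre recombinase driven by the Myh6 promoter, which is active in cardiac myocytes and not in fat cells. Whether the wild-type mice carried Cre is not given in the sources used here, and nothing in the labels says that the 5 libraries of a group came from separate animals, so the p-values below measure the spread between libraries.

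Adipocytes store triglyceride in a lipid droplet and secrete hormones. The nuclear receptor PPARgamma, the product of Pparg, and the transcription factor C/EBPalpha, the product of Cebpa, together switch on the adipocyte programme, and both are also made in other cells, PPARgamma in endothelial cells and macrophages among them. Adiponectin (Adipoq) and complement factor D, also called adipsin (Cfd), are secreted by fat cells. Perilipin 1 (Plin1) coats the lipid droplet and CIDEC (Cidec) helps droplets fuse. PEPCK (Pck1) supplies the glycerol backbone of triglyceride in fat and makes glucose in liver, stearoyl-CoA desaturase 1 (Scd1) makes monounsaturated fatty acids, and carbonic anhydrase 3 (Car3) is abundant in fat, liver and slow skeletal muscle. In arrhythmogenic cardiomyopathy, the disease this genotype models, fat and fibrous tissue replace heart muscle.

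Some libraries stood apart before any comparison. Total counts ran from 11232143 to 23710331 per library, and transcripts of the mitochondrial genome took 8.90% to 46.9% of them, the highest share in exercised wild type 1. Dsp was 1126 CPM (TMM-scaled counts-per-million) in the library labelled heterozygote 3 at 3 months, against 573.0 to 740.7 in the other heterozygotes of that age and 752.3 to 1299 in the wild types. At 6 months Dsp ranged from 581.1 to 679.8 CPM in heterozygotes and from 635.8 to 1021 in wild types, and with exercise from 705.2 to 938.9 and from 928.1 to 1907. In 3 wild-type libraries, number 4 at 3 months and numbers 2 and 5 at 6 months, RNA was counted for both Xist (66.8, 129.2 and 134.9 CPM) and Y-linked RNA (5.30, 2.24 and 2.67 CPM). The number of spike-in entries with a value was 3 in the 3-month libraries, 11 to 18 in the 6-month ones and 0 in the exercised ones, so a technical set cannot be told apart from age and exercise. Genotype was compared within each such set. In bulk RNA, fewer cells of a type and less RNA per cell cannot be told apart.

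The promoters of 4 of the genes are shown because Pparg and Cebpa encode regulators of the other genes, and because Adipoq, Plin1 and Cidec varied together across libraries while Pparg did not. They were read from RefSeq on GRCm38.p6, and a promoter was found for 7 of the 9 genes. Both strands of the 250 bases before each start were searched for the C/EBP-type motif TTGCNNAA, the CCAAT box, the nuclear receptor element AGGTCA, its direct repeat with 1 base between (DR1) and the TATA motif TATAAA, where the single element lies inside the direct repeat. Among 32851 such windows of all genes, the shares with a match were 9.56%, 33.8%, 14.0%, 0.0335% and 12.4%. Capitals mark the C/EBP-type motif or the CCAAT box on either strand. The sequences run 5′ to 3′ on the gene's strand, for Adipoq chr16:23146286-23146535 (plus strand), for Plin1 chr7:79732904-79733026 (minus strand, the bases upstream of the annotated exons), for a second start of Cidec chr6:113434765-113435014 (minus strand) and for an internal start of Pparg chr6:115421816-115422065 (plus strand).
Adipoq: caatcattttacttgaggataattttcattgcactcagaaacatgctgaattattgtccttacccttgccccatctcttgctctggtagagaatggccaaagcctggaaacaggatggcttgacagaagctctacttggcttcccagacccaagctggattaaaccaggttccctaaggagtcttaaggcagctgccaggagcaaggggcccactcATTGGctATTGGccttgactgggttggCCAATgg
Plin1: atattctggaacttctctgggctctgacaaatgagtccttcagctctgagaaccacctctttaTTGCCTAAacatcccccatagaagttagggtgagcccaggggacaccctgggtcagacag
Cidec: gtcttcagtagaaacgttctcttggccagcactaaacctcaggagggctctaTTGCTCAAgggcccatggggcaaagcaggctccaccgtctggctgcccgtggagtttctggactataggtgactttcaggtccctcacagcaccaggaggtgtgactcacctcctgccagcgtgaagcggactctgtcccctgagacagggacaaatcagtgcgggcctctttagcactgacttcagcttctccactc
Pparg: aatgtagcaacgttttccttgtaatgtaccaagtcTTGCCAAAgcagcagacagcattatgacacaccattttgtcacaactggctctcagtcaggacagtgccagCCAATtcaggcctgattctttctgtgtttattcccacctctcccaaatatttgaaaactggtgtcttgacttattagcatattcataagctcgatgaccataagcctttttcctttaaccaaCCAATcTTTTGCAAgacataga
The Adipoq window held 3 CCAAT boxes, whose first bases lie at -34, -27 and -7 from the start, the first 2 on the opposite strand and so printed as ATTGG, and no C/EBP-type motif. The Plin1 stretch held a C/EBP-type motif at -187, with another at -58 in the annotated exon bases that are not printed, the Cidec window 1 at -198, and the internal Pparg window 2, at -215 and -16, beside CCAAT boxes at -144 and -22. The windows of Cfd, Pck1 and the first Cidec start held none of the 5 motifs. Of the other Pparg windows, 1 held AGGTCA at -28 and 1 held AGGTCA at -9, TATAAA at -29 and a CCAAT box at -83, the last 2 on the opposite strand. The Cebpa window held TATAAA at -30. No window of the 7 genes held the direct repeat. A match describes these letters only and is not evidence of binding.

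Of the secreted proteins, adiponectin RNA was scarce in every group, where 1 read equals 0.038 to 0.0837 CPM. Adipoq (chr16:23146536-23158028, GRCm38) stood at 0.0694, 2.49, 1.21, 0.693 and 3.21 CPM in exercised wild types 1 to 5. It had no read in exercised heterozygotes 1, 2, 3 and 5, where 3 reads, the limit that a count of 0 allows, would be 0.207 to 0.251 CPM, and 0.296 CPM in heterozygote 4. Exercised wild type 1 lay below exercised heterozygote 4, so these groups overlapped in 1 library of each. The remaining groups had means at 3 months of 0.573 ± 0.440 CPM (SD, n = 5) for wild types and 0.460 ± 0.806 for heterozygotes. The means at 6 months were 0.362 ± 0.351 and 0.0823 ± 0.122. In all, 250 reads of Adipoq were counted, and 9 of the 30 libraries had none.

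Adipsin showed the same libraries on top. Cfd (chr10:79890853-79892655) stood at 0.972, 14.6, 5.02, 3.36 and 16.5 CPM in exercised wild types 1 to 5 and at 0.502, 0.0691, 0.420, 1.54 and 0.665 in exercised heterozygotes. At 3 months its highest value of all 30 libraries, 19.4 CPM, was in the library labelled heterozygote 3, while the other heterozygotes had 0.0810 to 4.61 and the wild types 0.705 to 7.45. At 6 months it ranged from 0.0509 to 4.02 CPM in wild types and from 0.166 to 2.90 in heterozygotes.

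The enzyme genes were higher in several of the same libraries. Car3 (chr3:14863512-14872523) stood at 0.972, 23.99, 12.9, 4.64 and 25.1 CPM in exercised wild types 1 to 5 and at 1.26, 0.346, 1.26, 2.25 and 2.22 in exercised heterozygotes. Pck1 (chr2:173153048-173159273) stood at 0.0694, 3.91, 1.65, 1.17 and 3.59 CPM in exercised wild types and at 0.0837, 0.0691, 0, 0.473 and 0 in exercised heterozygotes. In both genes exercised wild type 1 lay within the range of the heterozygotes and wild types 2 to 5 lay above it. Scd1 (chr19:44394455-44407879) was the most abundant of the 9 in CPM, at 18.6, 48.3, 36.2, 7.14 and 56.4 in exercised wild types and 8.62, 9.47, 8.39, 17.6 and 7.68 in exercised heterozygotes. Exercised wild type 4 had less Scd1 than every exercised heterozygote. At 3 months, 2 heterozygote libraries, the one labelled 3 and number 5, had 25.3 and 25.1 CPM of Scd1 against 2.52 to 11.4 in the other 8 libraries.

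The lipid droplet genes behaved likewise. Plin1 (chr7:79720218-79732903) stood at 0.347, 2.78, 2.41, 1.87 and 4.51 CPM in exercised wild types 1 to 5 and at 0, 0, 0.420, 1.18 and 0.443 in exercised heterozygotes. Cidec (chr6:113424634-113435760) stood at 0.486, 4.74, 2.22, 0.906 and 5.35 CPM in exercised wild types and at 0, 0, 0.420, 0.414 and 0.369 in exercised heterozygotes. Cidec was the one gene of the 9 whose exercised groups did not overlap, and 1.84% of all tested genes had that property. The separation was narrow, with 7 reads in exercised wild type 1 and 6 and 7 in exercised heterozygotes 3 and 4. Total counts were higher in exercised wild type 1 than in heterozygote 4 (20631839 against 16249217), so their order rests on the TMM scaling. The library labelled heterozygote 3 at 3 months held 3.40 CPM of Plin1 and 4.60 of Cidec.

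Of the regulators, Pparg followed another pattern, and Cebpa did so in part. Pparg (chr6:115360951-115490399) stood at 22.7, 7.05, 8.77, 5.76 and 7.03 CPM in exercised wild types 1 to 5 and at 6.28, 5.46, 6.22, 9.99 and 8.42 in exercised heterozygotes. Its highest value was in exercised wild type 1, where Adipoq, Cfd, Car3, Pck1, Plin1 and Cidec were lowest of their group. Cebpa (chr7:35119293-35121928) ranged from 1.12 to 3.36 CPM in exercised wild types and from 0.761 to 1.99 in exercised heterozygotes, and its highest value, 4.60, was in heterozygote 3 at 6 months. Among its top 6 libraries were also wild type 3 at 6 months, exercised wild type 5 and the library labelled heterozygote 3 at 3 months. Exons of Cebpa overlap Gm45091 on the opposite strand, and the strand setting of the counting is not given in the sources used here, so reads of the 2 genes could be mixed.

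**Figure D1:**
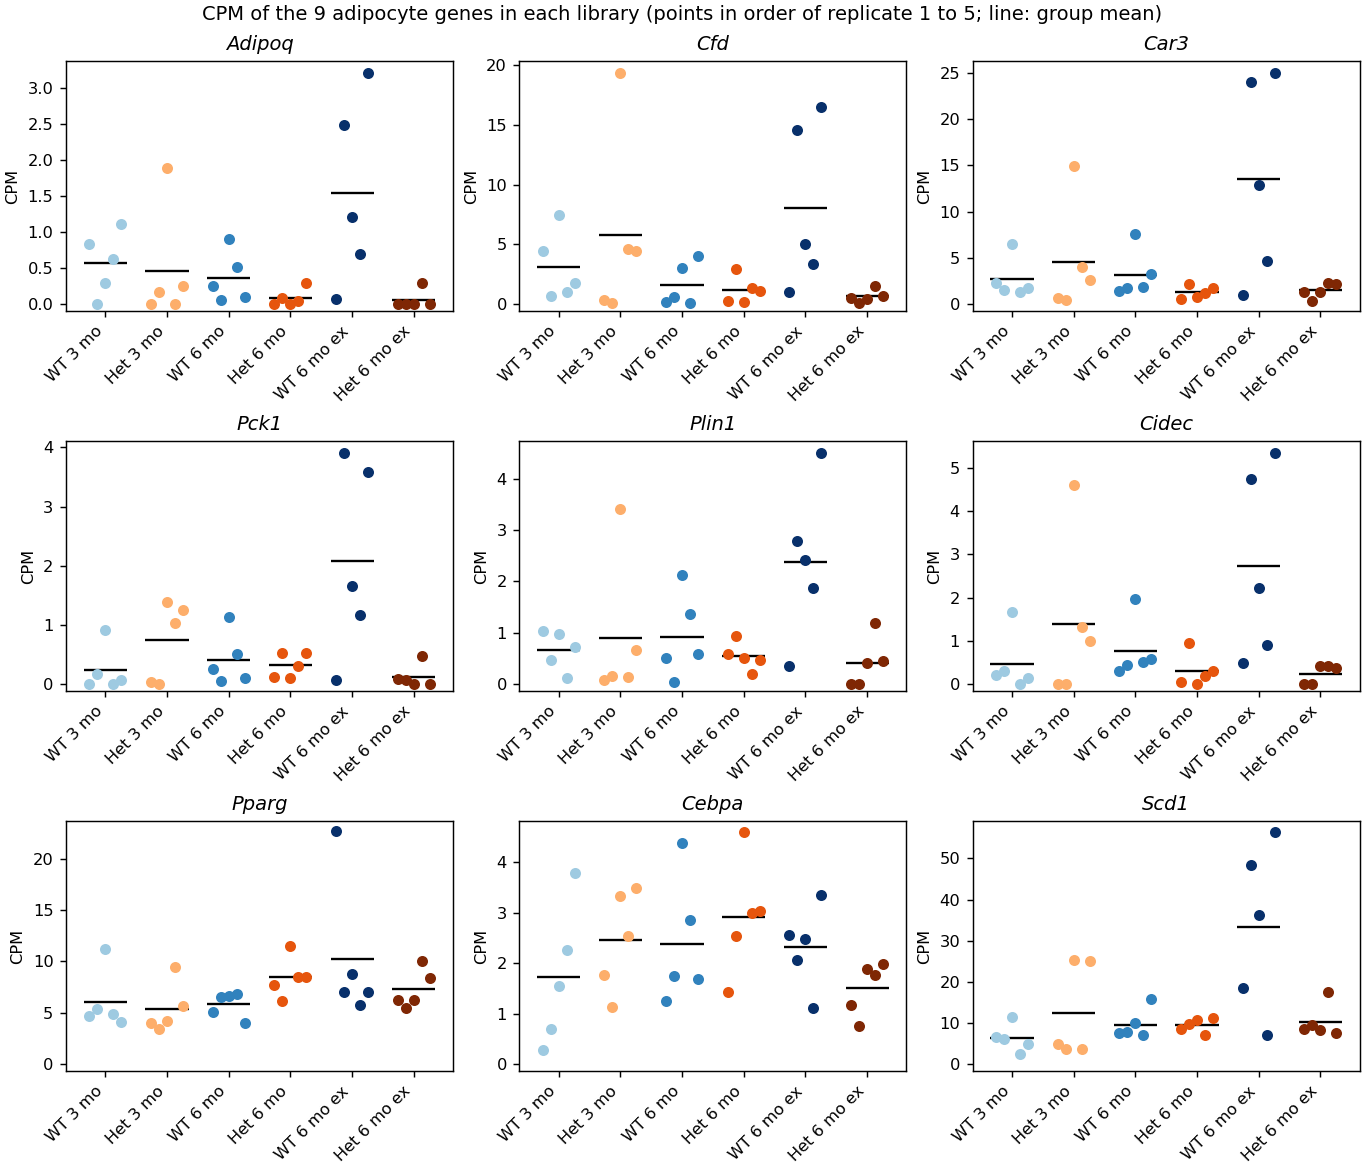
CPM (vertical axis, linear, own scale per gene) of each of the 9 genes in the 30 libraries, with points in order of replicate number and a line at the mean of 5 libraries. Exercised wild types 2, 3 and 5 and the library labelled heterozygote 3 at 3 months are high in Adipoq, Cfd, Car3, Pck1, Plin1 and Cidec, whereas the highest Pparg value, 22.7 CPM, is in exercised wild type 1.

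Per kilobase of exon (RPKM, the CPM divided by the exon length in kilobases), the order of the genes differed between the exercised groups. In exercised wild types the mean levels were 8.77 RPKM for Cfd, 6.81 for Scd1, 4.72 for Car3, 3.47 for Pparg, 1.48 for Cidec, 1.11 for Adipoq, 0.880 for Cebpa, 0.606 for Pck1 and 0.513 for Plin1. Each gap between neighbours in that order was smaller than the SD of the higher gene. That SD does not measure the spread of a difference between genes read in the same libraries, so the order of neighbours was not tested. In exercised heterozygotes Pparg (2.46 RPKM) and Scd1 (2.12) came first, followed by Cfd (0.693), Cebpa (0.576) and Car3 (0.511). Cidec, Plin1, Adipoq and Pck1 lay between 0.0365 and 0.1296. The step from Scd1 down to Cfd was larger than the SD of Scd1. The lengths are those of the union of all annotated exons, so genes with several transcript forms can be understated.

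A few libraries carried most of the signal of 6 of the 9 genes. The 3 highest libraries of each gene held 49.4% of the summed CPM of Adipoq, 49.7% of Cfd, 48.0% of Car3, 46.9% of Pck1, 36.8% of Plin1, 50% of Cidec and 34.6% of Scd1, against 20.99% of Pparg and 19.2% of Cebpa. Exercised wild types 5 and 2 were both among the top 3 libraries for 7 of the 9 genes. Exercised wild type 3 was among the top 6 for 8 genes and the library labelled heterozygote 3 at 3 months for 8 genes. A group of 5 libraries, those 4 and wild type 3 at 6 months, held 63.2% of Adipoq, 57.7% of Cfd, 63.3% of Car3, 59.8% of Pck1, 52.4% of Plin1 and 64.3% of Cidec. They held 43.3% of Scd1, 23.5% of Cebpa and 15.6% of Pparg. The 5 were picked on these values, so the shares describe them and test nothing. Of the 5, 4 are labelled wild type and 1 is the library labelled heterozygote 3, whose Dsp lay in the wild-type range of its age. Its label was kept and not tested, and this tally of genotypes tests nothing either. The 5 libraries come from all 3 sets. Xist was 200.9 CPM in exercised wild type 5 and 107.2 in the library labelled heterozygote 3, and 0.314 to 0.762 in the other 3.

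**Figure D2:**
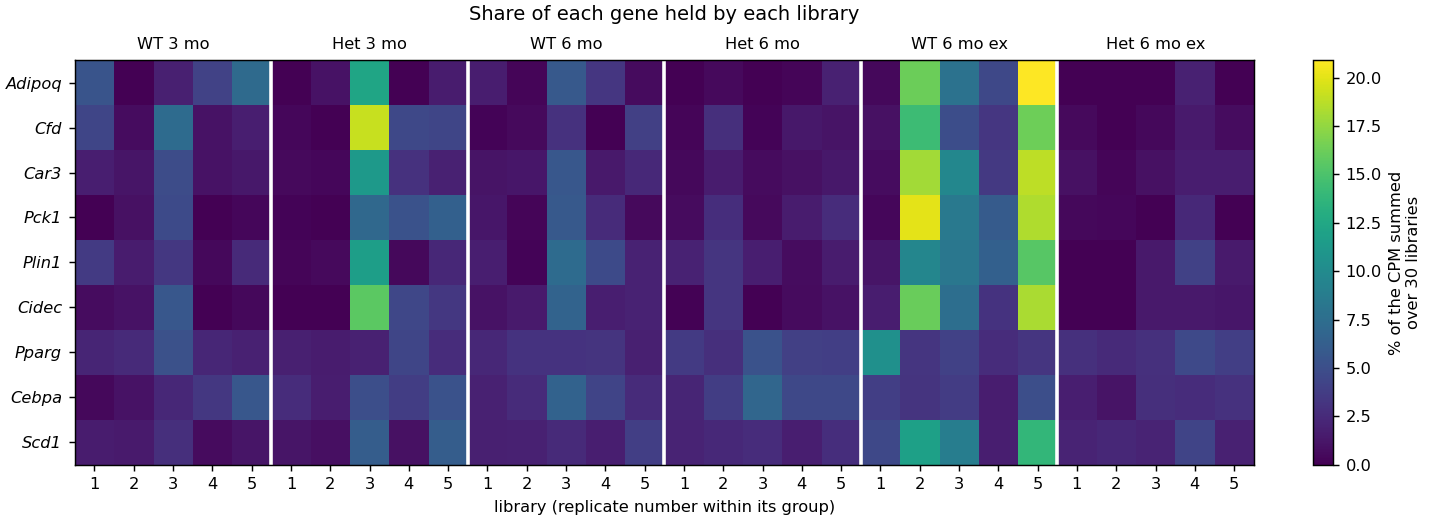
Share of each gene's CPM, summed over 30 libraries, held by each library (columns, replicate numbers within groups), as percent on a linear colour scale. The bright columns are exercised wild types 5, 2 and 3 and the library labelled heterozygote 3 at 3 months. Exercised wild type 5 alone holds 20.9% of Adipoq, and the Pparg row peaks in exercised wild type 1 at 10.49%.

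Among 24 further adipocyte markers, 8 had a median under 1 CPM over the 30 libraries, a limit set after the values were seen. Of these 8, 4 were highest in exercised wild type 5, where Adipoq was highest: leptin (Lep, 0.611 CPM), resistin (Retn, 2.29), the beta-3 adrenergic receptor (Adrb3, 1.45) and the activin receptor Acvr1c (0.840). Cyp2e1 was highest in exercised wild type 2 (8.77 CPM) and Adig in the library labelled heterozygote 3 at 3 months (1.70), which also held 0.819 CPM of Retn, 1.39 of Adrb3 and none of Lep. Rbp4, which carries retinol, was highest in wild type 5 at 6 months (0.145 CPM) and Ccdc3 in heterozygote 5 at 3 months (1.25). Adig was 0.382 CPM in exercised wild type 5, below its median of 0.629. The markers with a higher median followed no single library. Aqp7, Lipe, Sncg, Trarg1, Fabp4 and Cd36 were highest in exercised wild type 1, where Adipoq was only 0.0694 CPM. Slc36a2 was highest in exercised wild type 2, Thrsp in exercised wild type 3, and the rest in other libraries. Among exercised heterozygotes, Retn had 0.0591 CPM in number 4, and Retn in the other 4 libraries and Lep and Adrb3 in all 5 were at 0.

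Of 13 brown fat markers, 5 had a median of 0 over the 30 libraries. The highest value was 0.611 CPM for Ucp1, the uncoupling protein (exercised wild type 5), 0.420 for Otop1, 0.252 for Zic1, 0.151 for Slc27a2 and 0.117 for Elovl3. Other members of that list were abundant in all 30 libraries. Cox8b ranged from 283.4 to 987.1 CPM, Cox7a1 from 186.1 to 621.2, Ppargc1a from 74.8 to 451 and Cidea from 13.2 to 34.3, and Cox8b, Cox7a1 and Ppargc1a are also known as heart genes.

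Marker sums of other cell types were low, middling or high in these libraries. Exercised wild types 2, 3 and 5 had 239, 295.2 and 450.6 CPM of 15 fibroblast and fibro-adipogenic genes, against a median of 435.1 over all libraries and a highest value of 1154. Their sums over 12 endothelial genes were 343.5, 479.9 and 545.7 CPM (median 488, highest 1484). Over 12 macrophage genes they were 14.2, 18.5 and 32 CPM (median 29.6, highest 136.1). Over 7 erythroid genes they were 250.8, 38.4 and 6.49 CPM (median 20.95), and the first of these was the highest of all 30 libraries. Over 12 lymphocyte and neutrophil genes they were 0.474, 2.35 and 23.75 CPM (median 1.20, highest 84.1). Over 10 skeletal muscle genes they were 487.6, 1200 and 48.4 CPM (median 597.1), and the last value, from the library with the most Car3, was the lowest of all 30. Over 7 liver genes they were 1.42, 0.762 and 0.764 CPM (median 1.40, highest 31.45), and Alb, the albumin gene, was at 0 in all 5 exercised wild types. Over 10 ventricular myocyte genes they were 80800, 76450 and 74560 CPM (median 71490). Over 8 epicardial and mesothelial genes they were 43.2, 19.1 and 28.9 CPM (median 26.3). The highest such sum, 57.9, was in wild type 3 at 6 months, and the library labelled heterozygote 3 at 3 months had 22.7. Over 6 atrial genes the 3 exercised wild types had 111.6, 55.3 and 343.9 CPM (median 108.3, highest 1783). Those other 2 libraries had 454.2 and 87.4. The part of other cell types in the adipocyte gene values was not tested.

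Adipoq varied with Plin1, Car3, Cfd, Cidec and Pck1 across the 30 libraries, and with Scd1 by Pearson's r only. On log2 CPM with a prior count of 2, Pearson's r with Adipoq was 0.779 for Plin1, 0.768 for Car3, 0.653 for Cfd, 0.628 for Cidec, 0.623 for Pck1 and 0.489 for Scd1, and Spearman's rho was 0.774, 0.700, 0.624, 0.542, 0.509 and 0.343. It was 0.221 for Cebpa (rho 0.303) and -0.174 for Pparg (rho -0.102). Permutation tests with 100000 resamples, two-sided and adjusted by Benjamini-Hochberg over the 8 relations, gave p = 4e-05 for Plin1 and Car3, whose unadjusted p of 1e-05 is the smallest the resamples can give. They gave 0.000373 for Cfd, 0.0004 for Cidec, 0.00048 for Pck1, 0.0082 for Scd1, 0.279 for Cebpa and 0.358 for Pparg. The resamples shuffled all 30 libraries without regard to group, so differences between groups enter these p-values. For rho the adjusted permutation p was 8e-05 for Plin1, 0.00012 for Car3, 0.000853 for Cfd, 0.00436 for Cidec, 0.00725 for Pck1, 0.0863 for Scd1, 0.121 for Cebpa and 0.588 for Pparg. Without exercised wild types 5 and 2, the libraries farthest from the Adipoq median, r was 0.71 for Plin1, 0.656 for Car3, 0.537 for Cfd, 0.482 for Cidec, 0.46 for Pck1 and 0.235 for Scd1, 0.168 for Cebpa and -0.234 for Pparg, so the Scd1 relation rests on those 2 libraries.

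The relation was also computed within each of the 3 sets of 10 libraries, as a description with no test between the sets. Each set pools both genotypes, so differences between the genotypes enter these values. In the exercised set, 4 heterozygotes were tied at no Adipoq read. Among the exercised libraries r with Adipoq was 0.988 for Pck1, 0.963 for Cfd, 0.94 for Car3, 0.912 for Cidec, 0.90 for Plin1, 0.833 for Scd1, 0.51 for Cebpa and -0.0804 for Pparg. Among the 6-month regular-activity libraries it was 0.791 for Pck1, 0.752 for Car3, 0.718 for Cidec, 0.652 for Plin1, 0.277 for Cebpa, 0.12 for Cfd, -0.0291 for Scd1 and -0.27 for Pparg. At 3 months it was 0.698 for Plin1, 0.502 for Cfd, 0.452 for Car3, 0.336 for Scd1, 0.225 for Cidec, 0.187 for Cebpa, 0.000863 for Pck1 and -0.286 for Pparg. As deviations from the 6 group means, r was 0.721 for Plin1, 0.656 for Car3, 0.571 for Pck1, 0.522 for Cfd, 0.49 for Cidec and 0.473 for Scd1. For Cebpa and Pparg it was 0.341 and -0.333. Spearman's rho of these deviations was 0.665 for Plin1, 0.566 for Car3, 0.52 for Pck1 and 0.476 for Scd1. Cidec, Cfd and Cebpa had similar rho (0.449, 0.448 and 0.428), and Pparg had -0.185. The strongest pairs without Adipoq were Car3 with Cidec (r = 0.925) and Cfd with Car3 (0.875), given as descriptions over the 30 libraries.

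**Figure D3:**
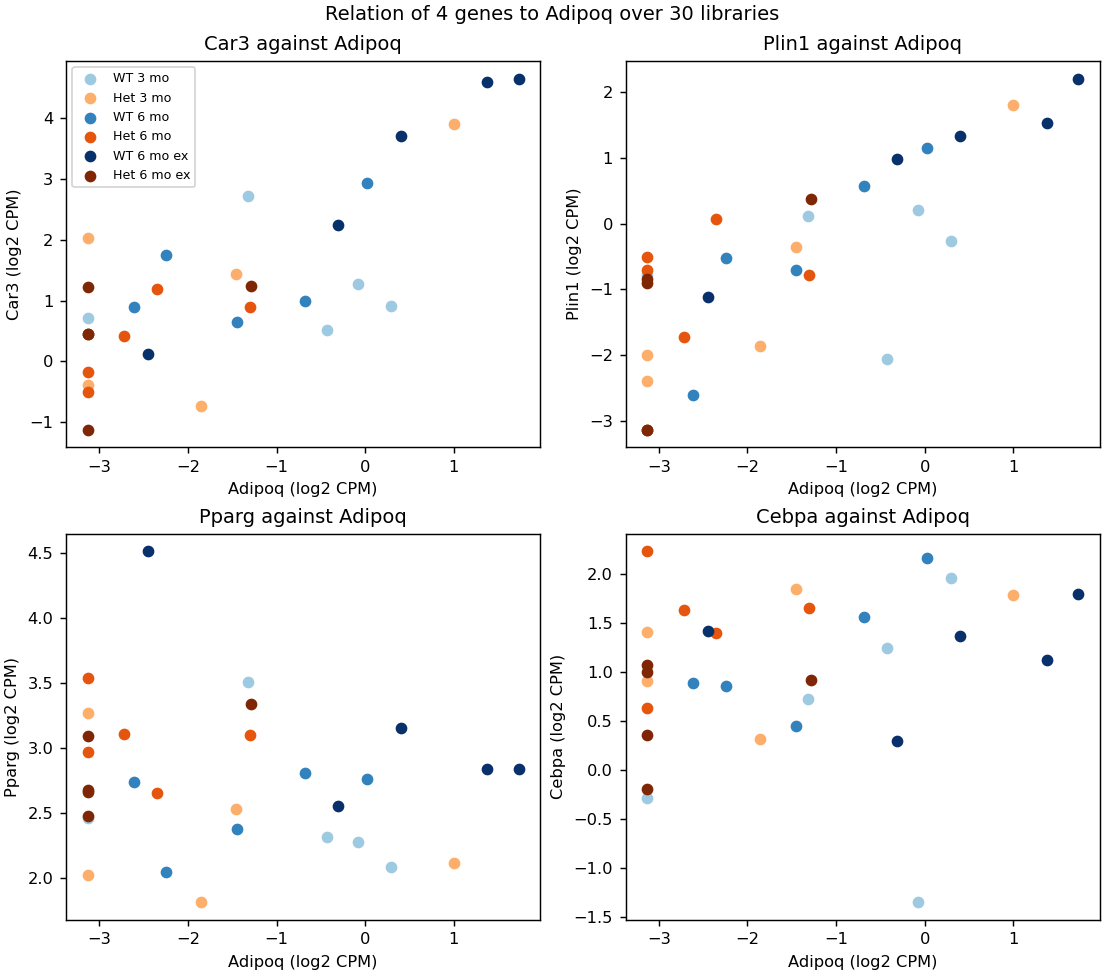
Log2 CPM of Car3, Plin1, Pparg and Cebpa (vertical axes) against Adipoq (horizontal axes) in 30 libraries coloured by group. Car3 (r = 0.768) and Plin1 (r = 0.779) rise with Adipoq, and Pparg (r = -0.174) and Cebpa (r = 0.221) do not pass the permutation test.

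Outside the 9 genes, the gene most like Adipoq over the 30 libraries was Cyp2e1 (r = 0.723), a cytochrome P450 of liver and fat. It stood at 8.77, 6.11 and 3.43 CPM in exercised wild types 2, 5 and 3, at 3.02 in the library labelled heterozygote 3, and at 0 to 1.63 in exercised heterozygotes. Next came Dmd (0.679), which encodes dystrophin, Depdc5 (0.651), Astn2 (0.647) and Wif1 (0.623). Over deviations from group means the order was Gm9752 (0.697), Hmgb1 (0.684), Sms (0.654) and Cyp2e1 (0.641), and Cyp2e1 and Sms were among the 10 most like genes by both measures.

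In exercised mice all 9 genes had lower fitted levels in heterozygotes than in wild types, and none passed the adjusted test. The log2 fold change was -4.38 (SE 1.28) for Adipoq, -3.89 (1.13) for Pck1, -3.61 (1.19) for Cfd, -3.44 (1.18) for Cidec and -3.19 (0.849) for Car3. For Plin1, Scd1, Cebpa and Pparg it was -2.48, -1.68, -0.60 and -0.49. The lowest adjusted p in edgeR's quasi-likelihood test over 15587 genes was 0.104, for Car3, followed by 0.131 for Pck1 and 0.133 for Adipoq. In that comparison 0.404% of all tested genes were called, 63 genes. Unadjusted p was under 0.05 for 7 of the 9 genes, all but Pparg and Cebpa, against 9.78% of all tested genes. Several of these genes varied together across libraries (Car3 with Cidec, r = 0.925), so they are not 7 separate results. The median log2 fold change was -3.19 over the 9 genes and -0.01 over all tested genes. The means behind the Adipoq value were 0.0591 ± 0.132 CPM (SD, n = 5) against 1.53 ± 1.29, from 5 and 117 reads, and those behind Car3 were 1.47 ± 0.793 against 13.5 ± 10.95. Without exercised heterozygote 4 the fitted values were -7.75 for Adipoq and -5.56 for Pck1. The Adipoq value is then set against libraries that are all at 0 and is no bound. In a fit of these 2 groups alone, 6 of the 9 genes passed the low-count filter, and Adipoq, Pck1 and Cidec did not. None of the 6 was called, against 13 of all 13673 genes tested in that fit, and the lowest log2 fold change was -3.60.

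Exercised wild type 1 and exercised heterozygote 4 stood apart within these groups. Both had the highest fibroblast sums of their groups, 1017 and 1154 CPM against 239.0 to 450.6 in the other 8 exercised libraries, and the highest macrophage sums, 64.5 and 136.1 against 14.2 to 35.7. Over the tested markers, 10 of 15 fibroblast and 9 of 10 macrophage genes had higher fitted levels in exercised heterozygotes than in exercised wild types, as did 6 of 6 skeletal muscle and 6 of 6 atrial genes, 2 of 12 endothelial genes and 0 of 5 erythroid genes. The median log2 fold changes were 0.24, 0.58, 1.04, 0.89, -0.37 and -2.08. No gene of these lists was called, against 0.404% of all tested genes, and their part in the result was not tested. Without exercised wild type 1 and heterozygote 4, 1 of the 9 genes, Pck1, was called (log2 fold change -5.87, edgeR adjusted p = 0.0462), and 44 of all 15858 tested genes were. These 2 libraries are also the wild type with the least Pck1 and the heterozygote with the most, so leaving them out had to widen that difference. Likewise, without exercised wild type 1 alone, the wild type with the least Car3, 1 of the 9 genes, Car3, was called (-3.50, edgeR adjusted p = 0.0418). In that fit 89 of all 15953 tested genes were called. Without exercised wild types 2, 3 and 5, which were left out for their high values, the log2 fold change was -2.47 for Adipoq, -0.95 for Car3 and -0.31 for Scd1, and none was called. On the same counts the DESeq2 Wald test called 4 genes lower in heterozygotes, Car3 (adjusted p = 0.00762), Pck1 (0.0320), Adipoq (0.0398) and Cfd (0.0465). With limma-voom Adipoq was called (adjusted p = 0.0380). Of all 15587 tested genes, the DESeq2 Wald test called 200 and limma-voom 188.

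In wild-type mice 1 of the 9 genes rose with exercise. Scd1 averaged 33.3 ± 20.4 CPM (SD, n = 5) after exercise and 9.61 ± 3.62 with regular activity, a log2 fold change of 1.79 (SE 0.539, edgeR adjusted p = 0.0347), and 8 of the 10 libraries fell on the side of their group when divided midway between the group means. Among all tested genes 9.69% were called in this comparison, 4.64% as higher. The groups of Scd1 overlapped, whereas 10.6% of all tested genes had groups that did not. The call was lost without any one of regular-activity wild types 1 to 4 or exercised wild types 2, 3 or 5 (edgeR adjusted p 0.06 to 0.0918). It was also lost without exercised wild types 2 and 5 together (log2 fold change 1.10, edgeR adjusted p = 0.313). On the same counts limma-voom called 6 of the 9 genes as higher and the DESeq2 Wald test 2, Scd1 among them in both. Of all 15587 tested genes, limma-voom called 2803, 1422 of them as higher, and the DESeq2 Wald test 1895, 1011 of them as higher.

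The other genes were not called in that comparison. The log2 fold change was 2.34 for Cfd, 2.30 for Pck1, 2.07 for Car3, 2.04 for Adipoq, 1.82 for Cidec, 1.35 for Plin1, 0.81 for Pparg and -0.05 for Cebpa, with edgeR adjusted p from 0.1 to 0.971. For Car3, with the lowest of these, the means were 13.5 ± 10.95 CPM against 3.18 ± 2.55. Unadjusted p was under 0.05 for 5 of the 9 genes, against 22.8% of all tested genes. Several of the 9 varied together across libraries, so these are not 5 separate results. With exercised wild types 2, 3 and 5 all left out, which were chosen for their values, the log2 fold change was 0.40 for Scd1 and -0.19 for Car3.

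In heterozygotes none of the 9 genes differed by the adjusted test between exercised and regular-activity mice (8.82% of all tested genes called). The log2 fold changes ran from -1.22 (Pck1) to 0.18 (Car3), and the lowest edgeR adjusted p was 0.232, for Cebpa, whose means were 1.52 ± 0.530 CPM with exercise and 2.92 ± 1.14 without. No gene reached an unadjusted p under 0.05, against 22.3% of all tested genes. With exercise in heterozygotes 1 of 15 fibroblast, 1 of 12 endothelial and 0 of 10 macrophage genes had higher fitted levels (median log2 fold change -0.48, -0.49 and -0.66), with none called, and their part was not tested. The difference between the genotypes in their change with exercise was tested directly as an interaction. Its log2 values were negative for all 9 genes, from -3.52 (Pck1) to -0.88 (Cebpa), the lowest edgeR adjusted p was 0.982, and 0 of 9 were called, against 0.0128% of all tested genes. Unadjusted p was under 0.05 for Pck1, Pparg and Scd1, and for 4.91% of all tested genes. The comparisons with exercised wild types share those 5 libraries, so their values are not independent.

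**Figure D4:**
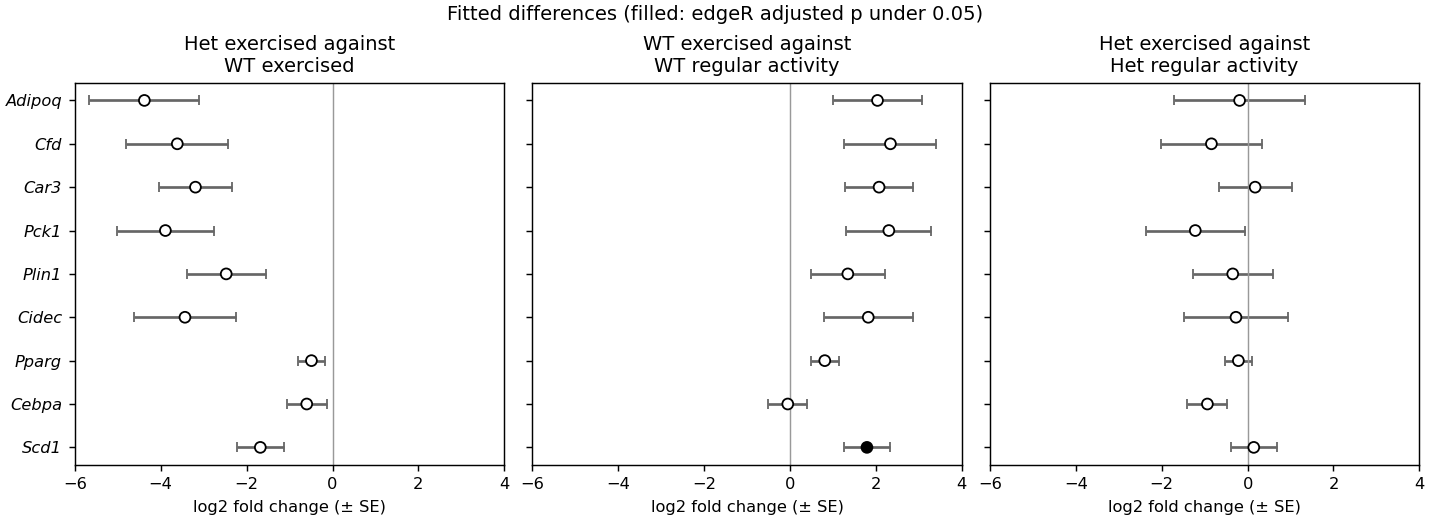
Log2 fold changes (horizontal axis) with their SE for the 9 genes in 3 comparisons of 5 against 5 libraries, a filled point marking an edgeR adjusted p under 0.05. Scd1 in wild types with exercise (1.79) is the filled point, and all 9 values lie below 0 for exercised heterozygotes against exercised wild types.

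At 3 months 7 of the 9 genes had higher fitted levels in heterozygotes and none was called, against 0.192% of all tested genes. The log2 fold changes ran from -0.30 (Adipoq) to 1.59 (Pck1), with a lowest edgeR adjusted p of 0.521. These values turned on 1 library, since without the library labelled heterozygote 3 the log2 fold change of Plin1 went from 0.41 to -1.42, that of Cfd from 0.90 to -0.40, that of Car3 from 0.75 to -0.50 and that of Adipoq from -0.30 to -2.59. At 3 months 3 of 15 fibroblast, 0 of 12 endothelial and 3 of 10 macrophage genes had higher fitted levels in heterozygotes (median log2 fold change -0.28, -0.59 and -0.16), with none called, and their part was not tested. At 6 months with regular activity 7 of 9 genes were lower in heterozygotes, from -2.16 (Adipoq) to 0.53 (Pparg), with a lowest edgeR adjusted p of 0.641 and 0 called, against 0.135% of all tested genes. In the same comparison 14 of 15 fibroblast, 12 of 12 endothelial and 10 of 10 macrophage genes had higher fitted levels in heterozygotes (median log2 fold change 0.62, 0.38 and 1.36), with none called, and their part in the result was not tested.

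Of the 9 genes, none was called with age either. From 3 to 6 months the log2 fold changes ran from -0.95 (Cfd) to 0.78 (Pck1) in wild types, with 0 of 9 called against 0.86% of all tested genes. In heterozygotes they ran from -2.48 (Adipoq) to 0.66 (Pparg), with 0 of 9 called against 3.43%, a lowest edgeR adjusted p of 0.221, and an unadjusted p under 0.05 for 3 genes against 19.6% of all tested genes. These values also turned on the library labelled heterozygote 3 at 3 months: without it they ran from -0.97 to 1.14, with a median of -0.17 in place of -1.18. With limma-voom 7 of 9 were higher at 6 months, and 1, Pparg, was called, where that method called 1418 of all 15587 tested genes. Fibroblast, endothelial and macrophage markers had higher fitted levels in heterozygotes at 6 months than at 3 months. This held for 15 of 15 fibroblast genes, with 6 called and a median log2 fold change of 1.37. It also held for 12 of 12 endothelial genes (3 called, 1.06) and 10 of 10 macrophage genes (4 called, 1.46). Mural and epicardial markers were higher in 7 of 9 and 7 of 8 genes. Other lists went the other way, with 1 of 6 atrial and 1 of 6 skeletal muscle genes higher. Of the ventricular myocyte genes 0 of 10 were higher and 1 was called lower. Of the lymphocyte and neutrophil genes 0 of 1 was higher. The part of these markers in the values of the 9 genes was not tested. For the interaction of genotype with age 0 of 9 were called and 0% of all tested genes, and the lowest edgeR adjusted p was 0.652.

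The 3 libraries with the most Pparg were also those with the most endothelial RNA. They were exercised wild type 1 (22.7 CPM), heterozygote 3 at 6 months (11.5) and wild type 3 at 3 months (11.2). Their endothelial sums, 1484, 1021 and 763.8 CPM, were the 3 highest of the 30 libraries, in the same order. The first and the second also had the highest sums of mural cell markers, 1635 and 1480 CPM. Fibroblast sums of the 3 were 1017, 1079 and 588 CPM (median 435.1), and macrophage sums 64.5, 109.9 and 26.2 (median 29.6). Both sums were highest, 1154 and 136.1 CPM, in exercised heterozygote 4, next in Pparg (9.99 CPM), with an endothelial sum of 595.3. Lower in the order the match with the endothelial sum did not hold. Heterozygote 4 at 3 months, among the 5 libraries with the most Pparg (9.497 CPM), had an endothelial sum of 340.6 against a median of 488. The Adipoq values of the first 3 were 0.0694, 0 and 0.286 CPM. The part of endothelial, mural, fibroblast or macrophage RNA in the Pparg values was not tested. Fabp4, a fatty acid carrier of fat and capillary endothelium, was also highest in exercised wild type 1 and heterozygote 3 at 6 months, at 457.2 and 227.8 CPM.

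**Figure D5:**
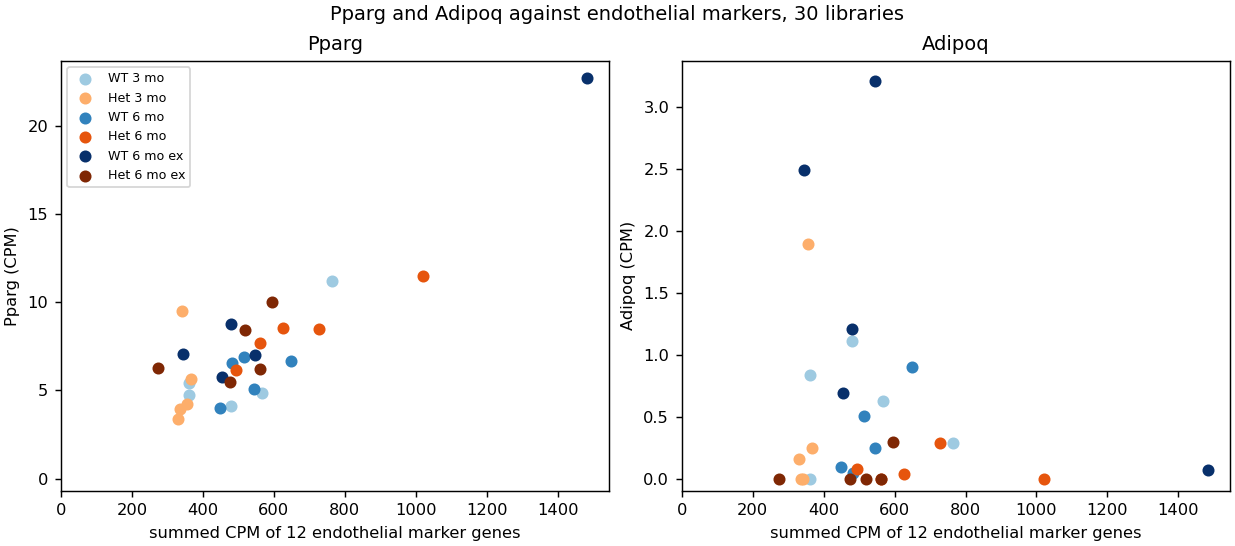
CPM of Pparg (left) and Adipoq (right) against the summed CPM of 12 endothelial marker genes in 30 libraries coloured by group, all axes linear. The 3 libraries with the highest endothelial sums (763.8 to 1484 CPM) have the 3 highest Pparg values, and their Adipoq is at most 0.286 CPM.

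Of the 24 further adipocyte markers, 19 were tested. Between the exercised genotypes 0 of these were called, against 0.404% of all tested genes, with 3 of 19 higher in heterozygotes and a median log2 fold change of -0.22. The smallest p values there belonged to Cyp2e1 (-2.68, edgeR adjusted p = 0.354), Sncg (-1.12), Agpat2 (-0.33) and Slc36a2 (-0.39). With exercise in wild types 1 of 19 rose and 0 fell, where 9.69% of all tested genes were called and 4.64% rose. That gene was Lpl, the lipoprotein lipase that heart muscle also makes, at 3872 ± 332.6 CPM against 2764 ± 296.3 (log2 fold change 0.49, edgeR adjusted p = 0.00629). In heterozygotes 1 of 19 rose with exercise and 2 fell, against 8.82% of all tested genes called. Lpl rose (0.56, edgeR adjusted p = 0.00197), and Agpat2 (-0.61, edgeR adjusted p = 0.00764) and the glycerol channel Aqp7 (-0.83, edgeR adjusted p = 0.0392) fell. The next 3 in wild types were Fabp4 (0.85), Cyp2e1 (2.42) and Sncg (1.08), with edgeR adjusted p of 0.121, 0.143 and 0.146.

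The other lists of fat biology are read against the same 9.69% of all tested genes called with exercise in wild types. Of 19 tested fatty acid synthesis genes 0 rose and 1 fell, Dgat1, which makes triglyceride (-0.40, edgeR adjusted p = 0.0412). The list's regulator Srebf1 had -0.58 (edgeR adjusted p = 0.101). Of 15 lipid droplet genes 0 rose and 2 fell, Plin5, the perilipin of oxidative muscle (-0.80, edgeR adjusted p = 0.00997), and Fitm1 (-0.63, 0.0382). Of 20 adipogenic regulators 0 rose and 4 fell: Nr1h2 (-0.37), Rxrb (-0.38), Rxrg (-0.54) and Cebpb (-1.31), with edgeR adjusted p from 0.018 to 0.0334. Of 27 relatives and receptors of the 9 genes 0 rose and 3 fell, Plin5, Cebpb and the adiponectin receptor Adipor1 (-0.44, edgeR adjusted p = 0.000665). Of 8 brown fat markers 1 rose, Ppargc1a, a coactivator of mitochondrial genes in heart as well (1.04, edgeR adjusted p = 0.00827). Of 8 genes of the alternative complement pathway, in which adipsin acts, 1 rose, Cr1l (0.42, edgeR adjusted p = 0.00763). None of these lists had a called gene between the exercised genotypes, where 0.404% of all tested genes were called.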

How the data were processed

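The deposited values were raw read counts per gene in 1 table of all 30 libraries, with no normalization by the authors. Per the labels' protocols, the libraries were stranded and paired-end and came from ribosome-depleted total RNA of cardiac myocytes. The submitters' processing notes name Trim Galore, HISAT2, featureCounts and, as the genome build, mm10. Their versions, the annotation release and the strand setting are not given in the sources used here.

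Of 52573 entries, 52550 were genes and 23 were spike-in controls, left out here. Positions and exon lengths came from GENCODE M21 (GRCm38), which held 52403 of the genes. Genes were filtered with filterByExpr, scaled with TMM factors and tested with edgeR 4.0.16 in R 4.3.3 (limma 3.58.1) by the robust quasi-likelihood F test over all 30 libraries, which left 24 residual degrees of freedom. P-values were adjusted by Benjamini-Hochberg over 15587 genes, and an adjusted p under 0.05 made a call. The SE of a log2 fold change is its size divided by the square root of F. CPM uses TMM-scaled library sizes. The 9 comparisons were genotype in 3 settings, exercise and age in each genotype, and 2 interactions. Group levels are means ± SD of 5 libraries. The fit was tested on simulated counts.

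Total counts of 11232143 to 23710331 per library limit the precision of genes with few reads, and a limit of 3 reads covers counting error only. Alternatives were DESeq2 size factors, no filter, the replicate number as a block, own groups only, a fit without mitochondrial genes and without the 10 other genes with the most reads, limma-voom, the DESeq2 Wald test (DESeq2 1.42.0), a threshold of 0.01, a prior count of 0.5 for the correlations, and leaving out each library. Leaving out pairs or triples of exercised libraries was added after seeing the data. All 9 genes were named in the text. From the 19 gene lists, the called genes and up to 4 with the smallest p were eligible to be named. The members and lists were chosen with earlier results of these data known.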

Additional observations from a re-analysis of the deposited data

Results flagged for a closer look

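In 3 of 54 gene-by-group sets of 5 libraries, 1 library lay far from the others by Dixon's gap test on log2 CPM, where chance gives about 1 in 20. Adipoq in exercised heterozygote 4 was 0.296 CPM, with no read in the other 4 libraries of that group. With 4 libraries tied at no read, the test marks any other value, so this case says nothing about its size and leaves 2 to set against chance. Scd1 in exercised heterozygote 4 was 17.6 CPM, against 7.68 to 9.47 in the others. That library also had the highest fibroblast and macrophage marker sums of its group, 1154 and 136.1 CPM, and their part in these values was not tested. Pparg in wild type 3 at 3 months was 11.2 CPM, against 4.13 to 5.41 in the others, and that library had the highest endothelial sum of its group, 763.8 CPM, whose part was not tested either.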

How the results depend on the processing

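Over the 9 comparisons, the number of the 9 genes called changed in 3. For genotype with exercise it went from 0 to 1 with limma-voom (Adipoq), to 4 with the DESeq2 Wald test, and to 1 without exercised wild type 1 and heterozygote 4, and it ran from 0 to 1 when single libraries were left out. For exercise in wild types it went from 1 to 0 at a threshold of 0.01, without the low-count filter (Scd1 edgeR adjusted p = 0.0793), with own groups only (0.0534) and without exercised wild types 2 and 5 or 2, 3 and 5. It rose to 6 with limma-voom and to 2 with the DESeq2 Wald test, and ran from 0 to 1 when single libraries were left out. For age in heterozygotes limma-voom called 1 gene, Pparg. Over all 15587 tested genes the calls rose with these methods as well. For genotype with exercise they went from 63 to 188 with limma-voom and to 200 with the DESeq2 Wald test. For exercise in wild types they went from 1511 to 2803 and to 1895. For age in heterozygotes they went from 534 to 1418 with limma-voom. Without the 2 libraries farthest from the Adipoq median the correlation with Adipoq fell to 0.46 for Pck1 and 0.235 for Scd1.

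No call changed under the replicate block, which gave Scd1 1.70 (edgeR adjusted p = 0.0327). Same-numbered libraries of different groups did not deviate together (median r = -0.00421 over 75 pairs), so the numbers do not pair them. The sign turned for these uncalled log2 values, and the cause was not tested. For genotype at 3 months limma-voom gave -0.18 for Pck1, -0.97 for Car3, -1.59 for Cidec, -1.27 for Plin1 and -1.69 for Cfd, and the replicate block gave -0.27 for Plin1. Single libraries left out gave ranges of -0.50 to 1.39 for Car3, -0.50 to 0.16 for Pparg, -1.42 to 0.73 for Plin1, -0.40 to 1.55 for Cfd and -2.59 to 0.087 for Adipoq. For genotype with exercise the range for Pparg was -0.67 to 0.015. For exercise in wild types, leaving out exercised wild types 2, 3 and 5 gave -0.19 for Car3 and -0.14 for Cidec, the replicate block gave 0.062 for Cebpa, and single libraries left out gave -0.22 to 0.29 for Cebpa. Without wild types 2, 3 and 5 the interaction with exercise was 0.33 for Car3. In the other 5 comparisons the sign turned in 19 of 310 single-gene values under other settings and in 28 of 540 without 1 library.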
